A study of Mus musculus with 2 samples.

Results

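High-insulin TBL/RβKO cells are the β-cells of a TBL/R1-deficient islet library in which insulin transcripts still took at least 20.0% of all captured molecules. They were chosen by readout, in the TBL/RβKO library alone. A barcode had to show more than 2500 detected genes and a mitochondrial share under 10%. Per 10000 unique molecular identifiers (UMIs, tags that mark single captured transcripts) it had to hold 2000 or more of Ins1 and Ins2 together, under 100 of Gcg, under 40 of Sst and under 150 of Ppy. The rule found 447 cells among 4179 kept barcodes of that library (10.7%, 95% exact binomial interval 9.78 to 11.7), out of 12900 barcodes in the series. The same rule found 2269 cells among 4747 kept barcodes of the control library (47.8%, 46.4 to 49.2).

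The series compared pancreatic islets of TBL/RβKO mice, in which Cre recombinase inserted at the endogenous Ins1 gene acts on loxP-flanked Tbl1x and Tbl1xr1 in β-cells, with islets of animals labelled wildtype, described in the study's methods as littermates without Cre. All mice were on a C57BL/6N background and aged 5 weeks. Each group gave 1 library of 150 islets pooled from 4 mice, cultured overnight in medium with serum and sequenced by droplet-based 3′ single-cell RNA sequencing. With 1 library per group, cells are not replicates, no test between the genotypes was possible, and each interval below is a 95% exact interval that covers counting error only.

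TBL1X and TBL1XR1 are closely related subunits of a nuclear receptor corepressor complex, which joins transcription factors to histone deacetylation and to the exchange of cofactors. A mature β-cell devotes most of its secretory effort to insulin. It takes up glucose through GLUT2 (Slc2a2), packs insulin with zinc imported by Slc30a8, and keeps these genes active through factors such as Mafa, Pdx1 and Nkx6-1. Mice carry 2 insulin genes, Ins1 and Ins2, which are transcribed from separate chromosomes.

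The label was checked against the markers Iapp, Nkx6-1 and Pdx1, which the rule had not used. Levels are given as UPM, UMIs of a gene per 1000000 UMIs left after the 5 hormone genes (Ins1, Ins2, Gcg, Sst and Ppy) and the mitochondrial genes were removed, so that the insulin share itself does not set them. Iapp, the amylin co-released with insulin, stood at 96986 UPM in the high-insulin TBL/RβKO cells, against 104290 in control cells of the same rule and 1413 in α-cells of the TBL/RβKO library. Nkx6-1 stood at 237 UPM and Pdx1 at 159, against 22.8 and 6.51 in those α-cells. Both were lower than in control cells, with 27.7% and 28.6% of the high-insulin TBL/RβKO cells below the control 5th percentile. The β-cell markers thus stood well above their level in α-cells, which were taken at 1000 or more Gcg per 10000 (974 TBL/RβKO and 954 control cells). Median depth was 67338 UMIs per cell in the high-insulin TBL/RβKO cells and 51959 in control cells, and the numbers of detected genes were 6477 and 5880. The study kept cells under 6000 genes, a limit that 294 of the 447 cells (65.8%) exceed. Doublets were not removed in the main values, although an automatic score marked 12 of the 447 cells as likely doublets. Both libraries held 14 barcode sequences in common, of which 1 belonged to a high-insulin TBL/RβKO cell.

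Promoters of genes at the centre of the results are shown so that their sequence can be read beside their levels: Ins1, the locus of the Cre insertion, Iapp and Slc2a2 as β-cell genes, and Glul and Rgs4, which stood higher in the TBL/RβKO cells. RefSeq sequences of build GRCm38.p6 from 250 bases before to 50 bases after the transcription start were found for 5 of 9 genes looked up. Ins2, Mafa, Slc30a8 and Csn3 are named only. Capitals mark TAAT on either strand, the core bound by homeodomain factors such as PDX1 and NKX6-1, with overlapping matches joined.
Ins1 (chr19:52264047-52264346, plus strand): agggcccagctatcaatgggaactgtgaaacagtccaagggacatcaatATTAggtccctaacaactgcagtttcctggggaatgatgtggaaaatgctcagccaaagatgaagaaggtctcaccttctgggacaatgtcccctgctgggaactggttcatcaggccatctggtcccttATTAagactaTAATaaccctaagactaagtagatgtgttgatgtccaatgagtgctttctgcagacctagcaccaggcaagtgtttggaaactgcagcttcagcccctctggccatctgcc
Iapp (chr6:142298175-142298474, plus strand): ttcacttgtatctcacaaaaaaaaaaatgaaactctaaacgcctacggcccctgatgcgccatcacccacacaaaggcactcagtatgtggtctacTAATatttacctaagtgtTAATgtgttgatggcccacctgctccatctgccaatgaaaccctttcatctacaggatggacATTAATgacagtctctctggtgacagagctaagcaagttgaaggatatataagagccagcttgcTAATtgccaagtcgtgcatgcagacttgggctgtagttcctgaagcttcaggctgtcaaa
Slc2a2 (chr3:28697653-28697952, plus strand): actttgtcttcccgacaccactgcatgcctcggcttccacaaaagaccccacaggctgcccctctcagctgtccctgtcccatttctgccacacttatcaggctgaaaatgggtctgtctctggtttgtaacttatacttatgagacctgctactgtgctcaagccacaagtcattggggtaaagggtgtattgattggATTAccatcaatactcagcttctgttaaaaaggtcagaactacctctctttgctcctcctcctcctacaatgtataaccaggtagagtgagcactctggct
Glul (chr1:153899679-153899978, plus strand): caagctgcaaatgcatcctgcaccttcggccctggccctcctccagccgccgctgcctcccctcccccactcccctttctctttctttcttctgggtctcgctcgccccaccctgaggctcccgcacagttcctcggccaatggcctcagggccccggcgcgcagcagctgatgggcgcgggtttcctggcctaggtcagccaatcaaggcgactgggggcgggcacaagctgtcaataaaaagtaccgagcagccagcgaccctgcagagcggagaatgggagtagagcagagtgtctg
Rgs4 (chr1:169747593-169747892, minus strand): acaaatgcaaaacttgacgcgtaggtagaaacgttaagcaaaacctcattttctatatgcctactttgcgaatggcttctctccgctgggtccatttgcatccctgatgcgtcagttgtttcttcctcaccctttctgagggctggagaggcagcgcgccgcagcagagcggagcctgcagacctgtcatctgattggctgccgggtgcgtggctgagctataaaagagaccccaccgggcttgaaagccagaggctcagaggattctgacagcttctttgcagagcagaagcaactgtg
TAAT or its complement ATTA occurred 3 times in the Ins1 window, 5 times in that of Iapp and 1 time in that of Slc2a2, and had 0 matches in those of Glul and Rgs4. Of 32851 promoters in the table, 58% held at least 1 match. AGGTCA, a motif of nuclear receptors, was found 1 time each in the Slc2a2 and Glul windows and in 16.3% of all promoters, and TGCTGA, part of the MAF recognition element, in none of the 5 windows and in 19.5% of all promoters (both strands). These are letter matches only.

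Ins1 and Ins2 stood apart in these cells, although the levels of both are in part fixed by the rule, which used their sum. Ins1 stood at a median of 619 UMIs per 10000 (quartiles 410 to 841, from 3.84 to 1448) in the high-insulin TBL/RβKO cells, against 1467 (1298 to 1631, from 221 to 2833) in control cells. Ins2 stood at a median of 3744 (3120 to 4333), against 3819 (3380 to 4197), and the quartile ranges of the groups overlap. The ratio of both genes did not enter the rule. It was 0.172 Ins1 UMIs per Ins2 UMI over the 447 cells and 0.382 over the control cells, and in 438 of the 447 cells (98.0%) it lay below the control 5th percentile of 0.288. Cre sits in the Ins1 gene of every TBL/RβKO animal, so an effect of the insertion and one of TBL/R1 loss cannot be told apart here. α-cells had ratios of 0.132 in the TBL/RβKO library and 0.331 in the control library, and the source of their insulin UMIs was not tested. As part of what the rule used, the insulin share of all UMIs had a median of 43.7% in the high-insulin TBL/RβKO cells and 53.1% in the control cells.

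**Figure D1:**
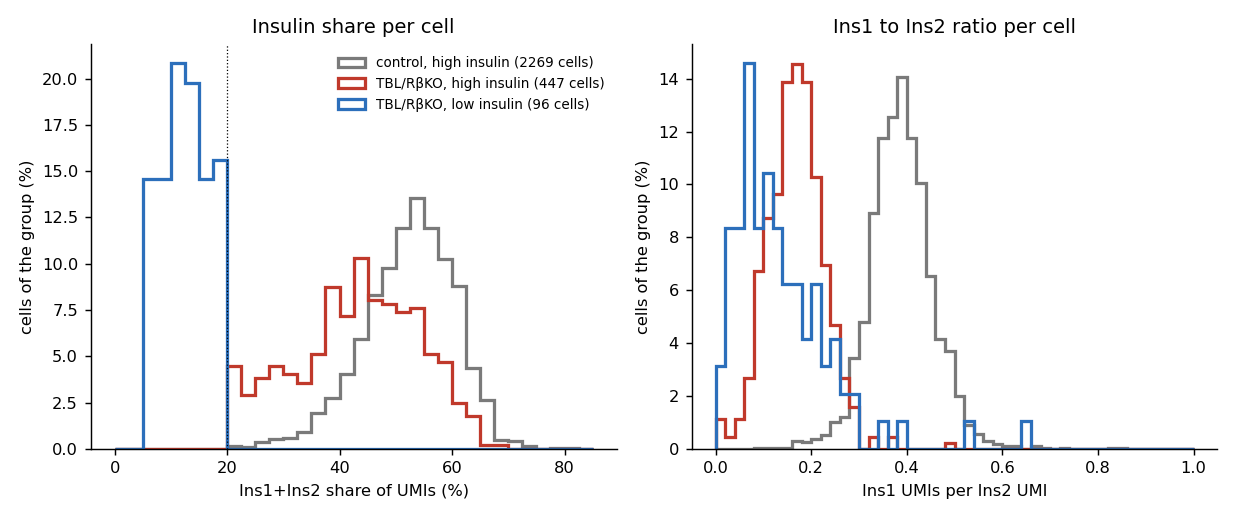
Distribution over cells of the Ins1+Ins2 share of UMIs (left, in percent, the dotted line marks the limit of the rule) and of Ins1 UMIs per Ins2 UMI (right), for 2269 control cells, 447 high-insulin and 96 low-insulin TBL/RβKO cells. The vertical axis is the percent of cells of the group; the ratio peaks near 0.172 in high-insulin TBL/RβKO cells and near 0.382 in control cells, with little overlap, and control values reach 1.2, beyond the axis drawn.

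The targeted genes were not lower in the high-insulin TBL/RβKO cells. Tbl1x (GRCm39 chrX:76554141-76706597, plus strand) stood at 478 UPM there and at 208 in control cells, and Tbl1xr1 (GRCm39 chr3:22129947-22270770, plus strand) at 174 and 42.5. α-cells, in which Ins1 is not active, held 391.98 and 371.66 UPM of Tbl1x and 59.1 and 51.8 of Tbl1xr1 in the TBL/RβKO and control libraries. Differences between groups are given as log2 ratios relative to the median gene among genes of 10 UPM or more in either group. On this scale Tbl1x was 1.38 higher (1.34 to 1.42) and Tbl1xr1 2.22 higher (2.14 to 2.29) in the high-insulin TBL/RβKO cells than in control cells. Per cell, 48.1% of the cells above the control 95th percentile of Tbl1x and 53.9% above that of Tbl1xr1. The UMIs come from 3′ ends, and the files do not say where on a gene they fell, so that these counts do not show whether the loxP-flanked part was removed.

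Cre itself was counted with 2 added features. The high-insulin TBL/RβKO cells held 1245 plus-strand Cre UMIs in 108 cells (24.2%, 20.3 to 28.4), the low-insulin cells described below 272 UMIs in 18 of 96 cells (18.8%), and TBL/RβKO α-cells 8 UMIs in 7 of 974 cells (0.719%). Control high-insulin cells held 0 Cre UMIs, which allows a share of cells with a UMI of up to 0.132% at 3 counts of the total (exact binomial upper limit 0.162%). Cells with a Cre UMI had more UMIs (median 80752) than those without (63885). Mafa stood at 342 UPM with and 353 without a Cre UMI, Slc2a2 at 202 and 223, and Tbl1x at 523 and 461.

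Across the transcriptome, 9324 genes entered the comparison of high-insulin TBL/RβKO cells with control cells, of which 342 (3.67%) were 2-fold or more higher and 214 (2.3%) 2-fold or more lower. The median gene was shifted by -0.18 on the log2 scale without hormone genes and by 0.07 on the scale of all UMIs, and each direction given below holds on both scales as well as relative to the median gene, unless stated. Without that centring, 238 genes were higher and 326 lower. In α-cells of both libraries, which went through the same steps, 36 genes were higher and 14 lower in the TBL/RβKO library among 9464.

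Among 19 β-cell transcription factors, Mafa alone passed 2-fold. Mafa (GRCm39 chr15:75617339-75620077, minus strand), a late activator of insulin and secretion genes, stood at 350 UPM in the high-insulin TBL/RβKO cells, 1168 in control cells, 36.9 in low-insulin TBL/RβKO cells and 0.90 in TBL/RβKO α-cells, a log2 ratio to control of -1.56 (-1.59 to -1.52). Per cell its median was 1.504 per 10000 against 11.3 in control cells, 102 of the 447 cells held no Mafa UMI, and 47.2% lay below the control 5th percentile. When every cell was thinned to 10000 UMIs without hormone and mitochondrial genes (442 TBL/RβKO and 2214 control cells deep enough), a Mafa UMI was seen in 61.5% against 96.7% of cells, where 0.973% of TBL/RβKO and 24.5% of control α-cells had one (77.2% against 98.3% before thinning). Nkx6-1, which separates β-cells from other islet fates, had a log2 ratio of -0.77 (-0.82 to -0.72), Rfx6 of -0.67 and Pdx1 of -0.59 (-0.65 to -0.53). Other factors stood on the opposite side: Glis3, an activator of insulin transcription, at 0.84 (0.81 to 0.88), Foxo1 at 0.76 and Neurod1 at 0.62. Pax6 lay at -0.18 and Nkx2-2 at 0.13, the direction of the last one depending on the scale. The median of the 19 factors was -0.11, beside 0 for all genes by construction.

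Of 15 glucose sensing and secretion genes, Slc2a2 alone passed 2-fold, downward. Slc2a2 (GRCm39 chr3:28752051-28785508, plus strand), the glucose transporter GLUT2, stood at 217 UPM against 804 in control cells, a log2 ratio of -1.71 (-1.75 to -1.66), and 142 of the 447 cells held no Slc2a2 UMI. After thinning, 50.2% of the TBL/RβKO cells and 96.6% of the control cells had a Slc2a2 UMI (68.2% and 98.4% before), against 1.46% of TBL/RβKO and 12.8% of control α-cells. Its neighbours in the pathway stood on either side of control. Glp1r, the incretin receptor, stood at 896 against 730 UPM (log2 ratio 0.48). G6pc2, a glucose-6-phosphatase of the islet, was within 0.08 of the median gene, Abcc8, the sulfonylurea receptor of the potassium channel, had a ratio of -0.36, and Gipr and Trpm5 were both at -0.79. Mafa and Slc2a2 levels followed each other from cell to cell with a Spearman rho of 0.68 over the 447 cells, all of 1 library and scaled by the same totals.

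The secretory granule genes were mostly above the median gene. Of 17 entered, Chgb and Pcsk1n were higher and Slc30a8 lower by 2-fold or more, and the median was 0.36. Slc30a8 (GRCm39 chr15:52158949-52199194, plus strand), the zinc transporter of the granule, stood at 423 UPM against 1421 in control cells (log2 ratio -1.56, -1.60 to -1.53) and was below the control 5th percentile in 64.9% of cells. α-cells express it too, at 2075 UPM in the TBL/RβKO library and 2428 in the control library. Chgb, an acidic granule protein, stood at 7572 UPM against 1566 (2.46, 2.44 to 2.47) and Chga, its relative, at 20243 against 12012 (0.94). Pcsk1n, an inhibitor of a prohormone convertase, had a ratio of 1.03, Pam, which amidates peptides, of 0.99, and Ptprn, a granule membrane protein, of 0.96. The convertases Pcsk2 (0.52) and Pcsk1 (0.12, its direction depending on the scale) and Iapp (0.08, likewise) lay closer to the median gene, while Ero1b, the oxidase of proinsulin folding, had a ratio of -0.77. None of 13 exocytosis genes passed 2-fold, Sytl4 at -0.99 being the lowest.

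**Figure D2:**
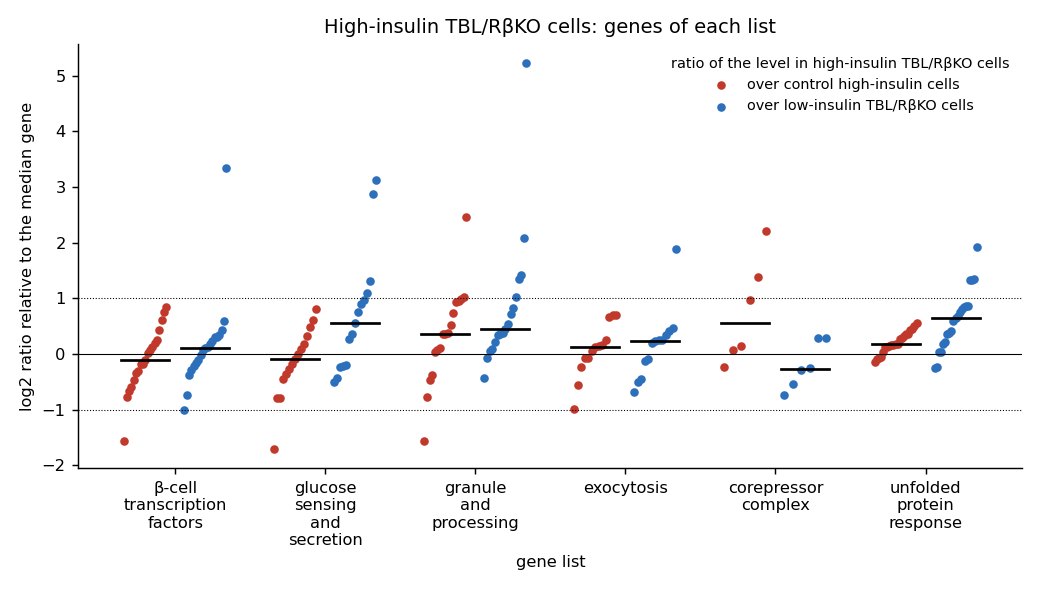
Log2 ratio relative to the median gene of each gene of 6 lists in high-insulin TBL/RβKO cells, over control cells (red) and over low-insulin TBL/RβKO cells (blue); black bars are list medians and dotted lines 2-fold. Mafa, Slc2a2 and Slc30a8 stand apart below the other genes of their lists in the comparison with control cells.

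Of 6 genes of the corepressor complex, only Tbl1x and Tbl1xr1 passed 2-fold. Ncor1, Hdac3 and Gps2 lay within 0.24 of the median gene, the direction of Ncor1 and Gps2 depending on the scale.

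Genes with the largest ratios above control, chosen by size among genes of 50 UPM or more, included several at or near 0 in control cells. Rgs4 (GRCm39 chr1:169569046-169575218, minus strand), which shortens G-protein signalling, stood at 1076 UPM in the high-insulin TBL/RβKO cells, 29.0 in control cells and 1343 in low-insulin cells, and was above the control 95th percentile in 71.1% of the 447 cells. S100a6, a calcium-binding protein, stood at 567 against 13.9 and was above that percentile in 41.2% of cells. Csn3, a casein, had 4051 UMIs in 68.5% of the TBL/RβKO cells and 50 UMIs in the control cells, or 229 against 0.81 UPM. Tmem252, a membrane protein, had 1598 UMIs in 28.9% of cells and 1 UMI in all control cells, a log2 ratio of 12.62 whose interval runs from 10.14 to 17.92. These genes thus differed in how many of the cells held them. Rgs4 stood at 323 UPM in TBL/RβKO and 194 in control α-cells, and S100a6 at 20.4 and 4.57. Csn3 stood at 2.25 and 0 UPM in these α-cells, and Tmem252 at 1.35 and 0. Thrsp, tied to lipid synthesis (5.496), Prkg2, a cGMP-dependent kinase (4.01), Pcp4l1 (6.72) and Krt19, a duct keratin (5.34), completed the set with Gast and Pyy. Glul, the glutamine synthetase, stood at 787 against 198 UPM (2.17, 2.14 to 2.21) and was above the control 95th percentile in 54.1% of cells. Tmem252, Csn3, Pcp4l1, S100a6, Defb1, Lgals3bp, Glul and Me1, which earlier work on these samples had singled out, were all past 2-fold, so that their count is no independent evidence.

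The 10 genes lowest against control by the same rule had log2 ratios from -2.56 to -1.92. They included the adhesion genes Pcdh15 (18.6 against 125 UPM) and Cdh8 (74.5 against 334), the ion channel Trpm3 (160 against 692), the selenium carrier Selenop (42.9 against 219) and the lipoprotein lipase Lpl (54.2 against 234). In α-cells of the TBL/RβKO and control libraries, Cdh8 stood at 195 and 219 UPM and Lpl at 963 and 743. Pcdh15 stood at 107 and 172 there, Trpm3 at 44.6 and 25.7 and Selenop at 238 and 212. Low-insulin TBL/RβKO cells held 26.8 UPM of Pcdh15 and 378 of Trpm3, more than the high-insulin cells. Of Cdh8, Selenop and Lpl they held less, at 7.83, 8.84 and 8.84.

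**Figure D3:**
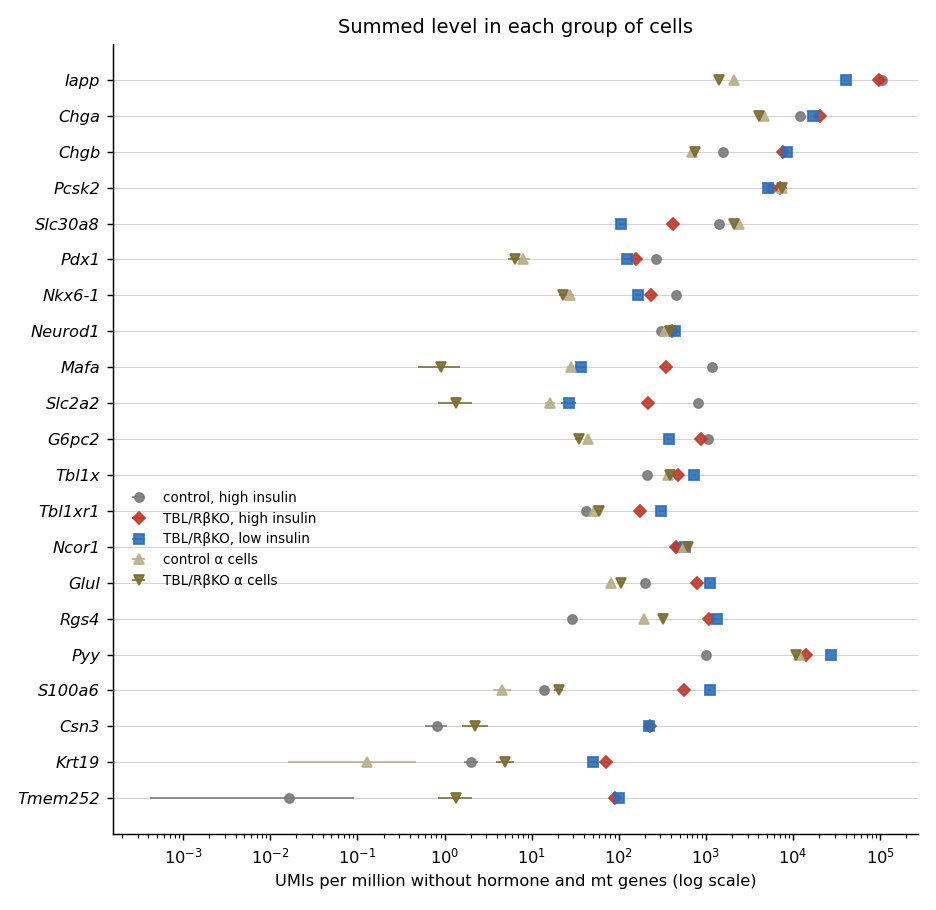
Summed level of 21 genes (UPM, log axis) in 5 groups of cells; bars are exact counting intervals. For Mafa, Slc2a2 and Slc30a8 the high-insulin TBL/RβKO cells (red) lie between control cells (grey) and low-insulin TBL/RβKO cells (blue), while for Rgs4, Csn3 and Tmem252 they lie close to the low-insulin cells.

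Peptides and markers of other islet cells were uneven across the 447 cells. Pyy, a gut and islet peptide, stood at 13975 UPM against 992 in control cells (log2 ratio 4.00), but its median per cell was 7.96 per 10000 against 2.34, its upper quartile 120 and its highest value 1464, so that a minority of cells held most of it. Ppy, which the rule limits to 150 per 10000, removed 198 of 761 insulin-rich cells of the TBL/RβKO library (26.0%), against 90 of 2674 (3.37%) in the control library. The 115 cells that Ppy alone removed had 93.3 UPM of Mafa, 55.1 of Slc2a2 and 84343 of Pyy. Gast, the gastrin gene, stood at 95.3 against 2.86 UPM. Neurog3, the endocrine progenitor factor, stood at 9.32 against 1.35 UPM and was seen in 9.84% of cells, with too low a level to enter. Lineage factors of α-cells were near 0, with Irx1 at 0.62 UPM (77.6 in TBL/RβKO α-cells) and Irx2 at 1.81 (134 in those α-cells).

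Summed levels of the other cell types' markers were as follows. α markers without Gcg reached 4409 UPM against 786, nearly all of it Ttr (4387 against 757), for which the per-cell range was 0 to 941 per 10000 around a median of 9.05 against 6.54. Ductal markers reached 487 against 47.8, through Spp1 (415) and Krt19 (72.2), with Sox9 at 0.11. Neither sum was spread evenly: Spp1 was found in 40.7% of cells and above the control 95th percentile in 16.8%. The ductal sums of α-cells were 293 UPM in the TBL/RβKO and 86.3 in the control library, with Spp1 in 50.6% and 31.6% of cells. A higher ductal sum is thus not particular to the high-insulin cells. Stromal (14.1 against 11.2), endothelial (4.69 against 8.05), acinar (0.73 against 1.09, with Cpa1 and Prss2 at 0) and macrophage markers (23.8 against 85.6) were low in both groups, with C1qa and Cd74 2-fold or more lower in the TBL/RβKO cells, B-cell markers were at 16.7 against 25.2, and T-cell markers at 0.17 against 0. δ markers without Sst were at 132 against 76.6 and PP markers without Ppy at 13998 against 1028, the last through Pyy. Without the cells marked as likely doublets (435 TBL/RβKO and 2197 control cells left), 347 genes were higher and 221 lower than in control cells. Whether any of the results above come from mixed droplets was not tested beyond that.

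Stress genes were read from the lists of the unfolded protein response and of immediate early and heat shock genes. Nupr1, which is on none of these lists, had a median of 0.75 per 10000 against 0 in control cells. It was above the control 95th percentile in 21.5% of the TBL/RβKO cells and reached 670 per 10000, against 31.4 in control cells. None of 21 genes of the unfolded protein response passed 2-fold against control, beside 3.67% of all genes higher and 2.3% lower. Their median was 0.17, with 17 above and 4 below the median gene, and Hspa5, the chaperone BiP, was highest at 0.56. Of 14 immediate early and heat shock genes entered, 2 were 2-fold or more higher and 1 lower, Egr1, at 127 against 320 UPM (-1.15). Hspa1a and Hspa1b passed 2-fold upward (2.07 and 1.72) but were seen in only 4.03% and 3.803% of cells, and both ratios turn negative when cells of both libraries with 2000 to under 4000 insulin UMIs per 10000 are compared (-0.27 and -3.91). None of 6 cell cycle genes entered passed 2-fold.

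Against published lists, beside 3.67% of all genes higher and 2.3% lower, 5 of 40 genes of β-cell maturity were lower (Mafa, Slc2a2, Vstm2l, Ppp1r1a and Slc30a8) and 1 higher (Gabbr2), with a median of -0.16. Of 39 genes of dedifferentiation, 9 were higher (Gast, Chgb, Mt3, Sorcs2, Slc39a11, Tagln3, Smoc1 and Pcp4l1 among them) and 1, Fabp3, lower, with a median of 0.35. Of 14 genes of β-cell immaturity, 4 were higher (Cldn4, Cldn6, Aqp4 and Chgb) and 1, Igfbp7, lower. Aldh1a3, often used as a mark of dedifferentiated β-cells, was at 3.28 UPM in 2.91% of cells, against 0.81. Of 16 disallowed genes, 1 was abundant enough to enter, Lmo4 at -1.23. Of the maturity, dedifferentiation and immaturity genes entered, 34, 29 and 9 lay within 2-fold.

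To place each cell between control and low-insulin cells, the 30 genes with the highest and the 30 with the lowest ratio of low-insulin TBL/RβKO cells to control cells were summed per cell. The low-insulin cells were 96 cells of the same library with 500 to under 2000 insulin UMIs per 10000 under the same other limits (4 cells in the control library), and the high-insulin cells took no part in choosing the genes. The gained set (Tmem252, Csn3, S100a6, Rgs4, Pyy and others) had a median of 49.5 UMIs per 10000 in the high-insulin TBL/RβKO cells, against 4.68 in control and 195 in low-insulin cells. This set also held Mgp, Sparc and Esm1, found in only 17.7%, 8.33% and 2.08% of low-insulin cells. The lost set (Mafa, Slc2a2, Ppp1r1a, Robo2, Slc30a8, the macrophage marker C1qa and others) had a median of 22.2, against 94.2 in control and 3.97 in low-insulin cells. The medians of the high-insulin cells thus lay between those of both other groups, and the lost set ran from 0.53 to 182 among them. α-cells, which are neither, had gained medians of 67.3 (TBL/RβKO) and 74.7 (control) and lost medians of 73.0 and 75.6. With Pyy left out, a choice made after the values were seen, their gained medians were 7.195 (TBL/RβKO) and 5.08 (control). On that count the high-insulin TBL/RβKO cells had 24.6, control cells 2.07 and low-insulin cells 75.96. A place between the groups is thus not particular to the high-insulin cells. Without Pyy, however, α-cells held less of the gained genes than they did.

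With limits set after the values were seen, at the control 95th percentile of gained genes (27.1) and the control 5th percentile of lost genes (51.1), 97 of the 447 cells (21.7%) lay inside both, where 91.6% of control cells lie. Another 263 (58.8%) lay outside both, as did 97.9% of low-insulin cells. In 67 cells (15.0%) the lost genes alone were below the limit, and in 20 (4.47%) the gained genes alone were above it. Gained and lost sets were opposed, with a Spearman rho of -0.64 over the 447 cells (-0.23 over the control cells), all scaled by the same totals. Pyy has by far the highest level of the gained set, so it was left out in a second count, after which 77 cells (17.2%) lay inside both limits and 298 (66.7%) outside both.

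**Figure D4:**
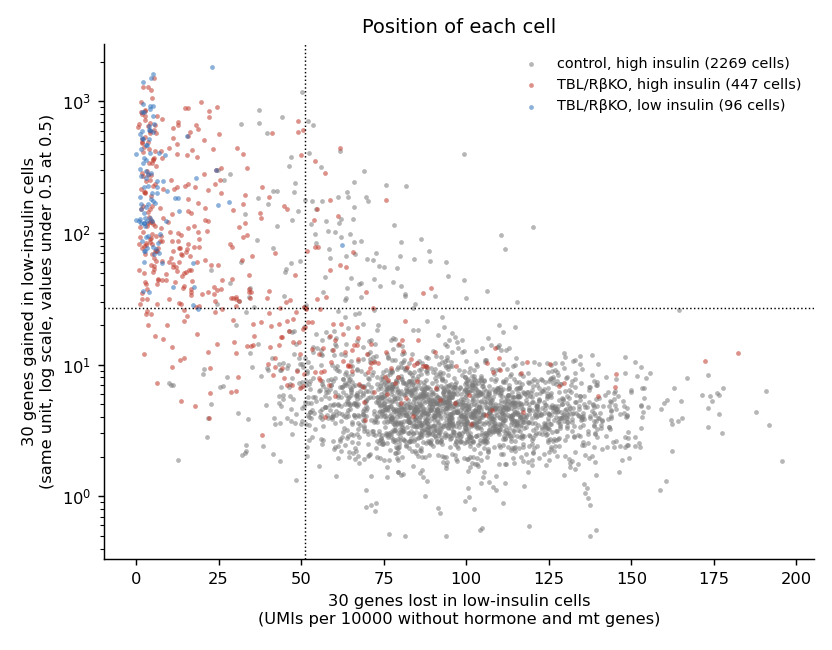
Each point is a cell, placed by its summed level of 30 genes lost (horizontal) and 30 genes gained (vertical, log axis) in low-insulin cells, per 10000 UMIs without hormone and mitochondrial genes; dotted lines are the control 5th and 95th percentiles. High-insulin TBL/RβKO cells (red) run from the control cloud (grey) to the low-insulin cells (blue), with 97 of 447 inside both limits.

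The 97 cells inside both limits still differed from control cells in the targeted genes. Their Mafa (938 UPM), Slc2a2 (664) and Slc30a8 (1059) were nearer to the control levels, which the limits on gained and lost genes ask for, while Tbl1x stood at 376 UPM (log2 ratio 0.91) and Tbl1xr1 at 120 (1.55). Their Ins1 per Ins2 ratio was 0.211 and 15 of them (15.5%) held a Cre UMI. Of 9296 genes, 78 (0.839%) were 2-fold or more higher and 66 (0.710%) lower than in control cells. Among genes of 50 UPM or more in either group, Rgs4, itself one of the gained genes, had the highest ratio at 226 UPM (3.02). Next came Pappa2 (122 against 20.7, 2.62) and the sterol synthesis gene Hmgcs1 (297 against 74.6, 2.05). The retinol carrier Rbp4 (16.3 against 75.7, -2.16) and the metallothioneins Mt1 (473 against 1765, -1.84) and Mt2 (-1.72) were the lowest. Csn3, which did not reach 50 UPM in these cells, stood at 26.4 against 0.81 UPM. In the 263 cells outside both limits, Mafa stood at 144, Slc2a2 at 74.8 and Slc30a8 at 212, with Tbl1x at 513, Tbl1xr1 at 197, Chga at 22445 and Rgs4 at 1506. Mafa, Slc2a2, Slc30a8 and Rgs4 belong to the lost or gained sets, so the limits in part fix their levels in these cells too.

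Levels also followed the insulin share itself. Bands of the share were set after the values were seen. From 2000 to under 3000 insulin UMIs per 10000, 70 TBL/RβKO cells held 61.0 UPM of Mafa and 52.4 of Slc2a2, and 25 control cells held 535 and 669. At 5000 or more, 132 TBL/RβKO cells held 560 and 340, and 1467 control cells 1228 and 796. Each of the 4 bands of TBL/RβKO cells was lower in both genes than the control band of the same insulin share. Tbl1x ran the other way in the TBL/RβKO cells, from 600 in the lowest band to 368 in the highest, against 239 and 191 in control cells, and Tbl1xr1 from 260 to 111, against 45.5 and 39.2. The Ins1 per Ins2 ratio was 0.128 in the lowest and 0.190 in the highest TBL/RβKO band, and 0.333 and 0.379 in the same control bands. With both libraries held to 2000 to under 4000 (166 TBL/RβKO and 165 control cells), Mafa had a log2 ratio of -2.10, Slc2a2 of -2.55 and Slc30a8 of -2.29, and 514 genes were higher and 602 lower.

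**Figure D5:**
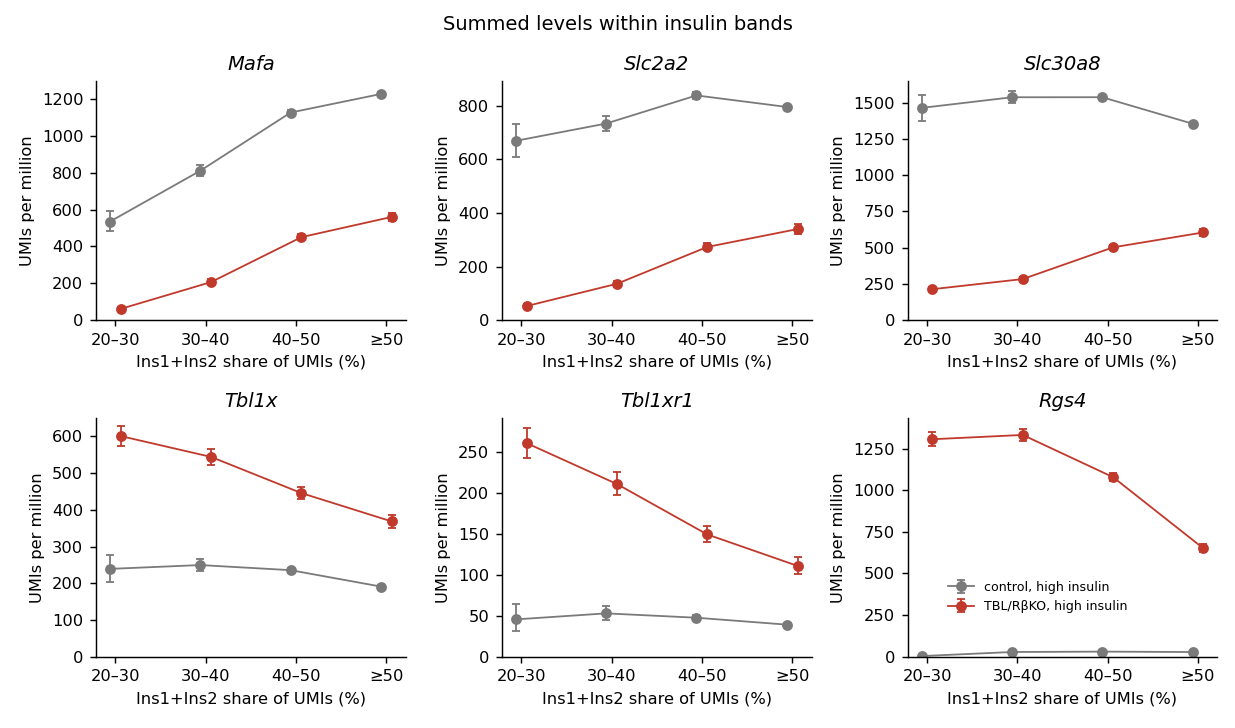
Summed level (UPM) of 6 genes in 4 bands of the Ins1+Ins2 share of UMIs, for high-insulin TBL/RβKO cells (red) and control cells (grey); bars are exact counting intervals. Mafa goes from 61.0 to 560 and Tbl1x from 600 to 368 over the TBL/RβKO bands, with Mafa below and Tbl1x above control in every band.

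Compared with low-insulin cells of their own library, the high-insulin cells held more RNA of several β-cell genes. Among 9272 genes entered, 222 (2.39%) were 2-fold or more higher in the high-insulin cells and 309 (3.33%) lower. On the scale of all UMIs, which insulin fills to different extents in these groups, 70 were higher and 2287 lower. The low-insulin cells also held more stromal (345 against 14.1 UPM) and endothelial marker RNA (50.8 against 4.69). Mgp, Sparc, Esm1 and Col4a1, all among the 10 genes lowest in this comparison, are known from such cells, and the part of these cells in the result was not tested. Without cells above the control 95th percentile of these markers, 412 high-insulin and 89 low-insulin cells remained, and 245 genes were higher and 238 lower.

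On the higher side stood Mafa (log2 ratio 3.34), Slc2a2 (3.13), Cdh8 (3.34), Ppp1r1a, a phosphatase inhibitor (3.32), and Robo2, the Slit receptor (2.60). Of 41 maturity genes 12 were higher and 1 lower, of 15 glucose sensing genes 4 were higher (Slc2a2, Trpm5, G6pc2 and Kcnj11) and none lower, and of 17 granule genes 5 were higher (Vgf, Slc30a8, Ero1b, Iapp and Scg3). The medians of the maturity, glucose sensing and granule lists, 0.41, 0.55 and 0.45, become -0.32, -0.18 and -0.28 on the scale of all UMIs. Of 21 unfolded protein response genes 4 were higher (Sdf2l1, Creld2, Manf and Pdia6) and none lower, with a median of 0.66 that becomes -0.07 on the scale of all UMIs. Chga, Pdx1, Nkx6-1 and Pcsk2 differed by 0.35 to 0.60, with a direction that depends on the scale. On the lower side, Tbl1x (-0.54) and Tbl1xr1 (-0.73) were within 2-fold, while Glis3 stood at -1.01 and Neurog3 at -1.39. Csn3 stood at 229 against 220 UPM, with a direction that depends on the scale, and Tmem252 at 90.3 against 99.3.

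Around the insulin limit, 21 cells just inside (2000 to under 2300 per 10000) had 25.4 UPM of Mafa, 31.2 of Slc2a2 and 667 of Tbl1x, and 18 cells just outside (1700 to under 2000) had 92.0, 56.5 and 848. Around the Ppy limit, 41 cells just inside and 28 just outside had Mafa at 120 and 131 and Slc2a2 at 50.1 and 59.9. Mafa and Slc2a2 were thus not higher just inside either limit than just outside it, while Iapp stood at 78714 inside the insulin limit and 46375 outside. By number of detected genes, the 153 cells under 6000 had Mafa at 373 and Tbl1x at 459, and the 294 others 344 and 482.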

How the data were processed

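Single-cell libraries were prepared with droplet-based 3′ chemistry from dispersed islets, 1 library per group. The deposited matrices are raw UMI counts, and the submitters' notes give Cell Ranger 7.1.0 as the tool. The same notes name the builds GRCm39 and mm39. Unlike the study's analysis, no removal of free RNA and no upper limit on detected genes was applied. No doublets were removed in the main values. Library totals were 185062206 UMIs (TBL/RβKO) and 241434108 (control).

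Cells were chosen by the limits given above. Summed levels were scaled per 1000000 UMIs without 5 hormone genes and 13 mitochondrial genes (UPM), and log2 ratios were centred on the median gene among genes of 10 UPM or more in either group, with 0 counts set at 3. A gene was called at a 2-fold difference. Named genes were the 10 highest and 10 lowest ratios in each comparison among genes of 50 UPM or more, and the members of the gene lists. Intervals are exact (95%, Poisson or binomial) and cover counting error only, since with 1 library per group there was no test. The members and lists were chosen with earlier results of these data known. The bands of insulin share, the limits on gained and lost genes, the windows around the limits and the splits by Cre and gene number were set after the values were seen. The fold computation was tested on simulated data. Analyses used Python 3.11.15, numpy 2.4.6, scipy 1.17.1, pandas 2.3.3, scanpy 1.11.5 and matplotlib 3.10.9. Gene positions are from GENCODE on GRCm39, and promoter sequences from RefSeq on GRCm38.p6. A few genes of the lists and of the size rule are not reported here.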

Additional observations from a re-analysis of the deposited data

Results flagged for a closer look

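Among TBL/RβKO barcodes that met the hormone limits of the high-insulin cells but not those on detected genes or mitochondrial UMIs, and so entered no comparison, 35 Cre UMIs were found in 8 of 60 barcodes (13.3%, exact binomial interval 5.94 to 24.6). The 191 such control barcodes held 0, so that a share under 1.57% (3 counts of the total) or, by the exact binomial upper limit, 1.91% remains possible. The 60 barcodes had a median of 5646 UMIs, and their Ins1 per Ins2 ratio was 0.181, against 0.335 in the 191 control barcodes.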

How the results depend on the processing

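No paired analysis was possible because each group holds 1 library and the groups share fewer than 2 replicate numbers. For the same reason no replicate could be left out. Against control cells, Mafa kept a log2 ratio of -2.10 to -1.33 and Slc2a2 of -2.55 to -1.48 over the alternatives. Counts of genes higher and lower against control moved to 3299 and 945 without a filter on low levels, to 164 and 72 at 50 UPM or more, and to 514 and 602 in cells of 2000 to under 4000 insulin UMIs per 10000, and the lower count to 326 without centring. Against low-insulin cells they moved to 1005 and 3277, to 91 and 88, to 70 and 2287 on the scale of all UMIs, and to 1004 and 726 under 6000 genes, where 25 low-insulin cells were left. Tbl1x was at 1.46 on the scale of all UMIs, 1.199 without centring, 1.43 with free RNA subtracted, 1.49 at matched insulin and 1.30 at an insulin limit of 3000, and Tbl1xr1 at 2.03 without centring, 2.46 at matched insulin, 2.35 under 6000 genes and 2.06 at the limit of 3000. The Ins1 per Ins2 ratio was 0.139 at matched insulin, 0.173 under 6000 genes, 0.171 without likely doublets and 0.175 at the limit of 3000. The share of high-insulin cells was 6.05% under 6000 genes, 9.02% at the limit of 3000 and 8.95% with the other hormone limits halved. With 100 genes each way, the gained and lost medians were 247 and 82.9, and without Pyy, an alternative chosen after seeing the data, the gained median was 24.6. Directions turned at matched insulin for Hspa1a (-0.27) and Hspa1b (-3.91), and under 6000 genes for Cd74 (0.81), all against control. Against low-insulin cells they turned under 6000 genes for Cd74 (1.16), Col4a1 (0.93), Dnajb1 (-0.29), Ier3 (0.60), Igkc (0.22), Mgp (0.60), Mki67 (-0.78), Pecam1 (1.25), Sparc (0.085) and Top2a (-0.43), without likely doublets for Aldh1a3 (1.99), Cd74 (0.13) and Igkc (2.72), and without cells rich in stromal or endothelial markers, chosen after seeing the data, for Aldh1a3 (2.75), Col3a1 (0.063), Col4a1 (0.29), Ier3 (1.35), Igkc (2.70) and Sparc (1.10). The cause was not tested.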
